A study of Mus musculus with 6 samples.

Results

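The genes described here held their level from D0 to D6 of the conversion of mouse ES cells from serum to 2i+vitC and were lower on D13. They were selected on the deposited expression values, given as log2 CPM, that is reads scaled to library size. The D6 mean had to exceed the D13 mean by at least 1.2, and to differ from the D0 mean by less than 0.5. Both D6 values had to be above 0, and both D13 values below both D6 values. Of 12522 genes with a unique name, 176 met these conditions, which is 1.41%.

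RNA of J1 ES cells, labelled WT, was sequenced on 3 days with 2 biological replicates each, 6 samples in all. D0 cells grew in serum with 1000 U/mL LIF. D6 and D13 cells had spent 6 and 13 days in a serum-free medium with the same LIF, 3 µM of the Gsk3 inhibitor CT-99021, 1 µM of the MEK inhibitor PD0325901 and 100 µg/mL vitamin C. All cells grew on gelatin without feeder cells, and since D0 differs from the later days in both medium and time, only D6 and D13 differ in time alone.

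The inhibitors hold ES cells in a naive state by blocking differentiation signals, while vitamin C is a cofactor of the TET dioxygenases, which oxidize methylated cytosine. Media of this kind are known to lower DNA methylation. Zinc finger genes of the KRAB type, which lie in clusters of related copies, encode DNA-binding proteins that recruit repressive chromatin to transposons.

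All 6 ES cell markers on the list (Pou5f1, Sox2, Nanog, Zfp42, Sall4 and Esrrb) were expressed on every day, and none of them was among the 176 genes. Their summed level was 2581 to 3208 CPM on D0, 3449 to 3688 on D6 and 2643 to 3134 on D13. Markers of other cell types had summed levels across all samples of 473 to 869 CPM for primitive endoderm, 127 to 267 for trophoblast, 9.0 to 23.1 for mesoderm and 227 to 388 for neural cells. The fibroblast list summed to 624 to 1690 CPM, a range that D0 replicate 1 and D13 replicate 2 spanned. Genes of the 2-cell stage summed to 44.2 to 64.2 CPM on D0, 254 to 265 on D6 and 137 to 178 on D13, and germline genes to 220 to 221, 653 to 716 and 1009 to 1099. Each measured gene of these lists reached 10 reads in at least 1 sample, and the part of other cells in the results below was not tested. Between 73230745 and 83688345 reads per sample fell on genes.

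The D6 level exceeded the D13 level by a median of 1.48 on the log2 scale over the 176 genes, which is 2.79-fold, with a range from 1.202 to 2.93. Over all 12522 genes the same median was 0.01. Only 18 of the genes differed by more than 2. In bulk RNA, fewer cells expressing a gene and less RNA per cell cannot be told apart. Because these differences chose the genes, they are given as a description and no test is drawn from them. The set held 163 protein-coding genes, 7 long non-coding RNAs, 5 transcribed pseudogenes and the antisense RNA Tsix. Every member had at least 85 reads in each D6 sample and at least 15 in each D13 sample.

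The threshold cut a continuous distribution. Just inside it stood Twistnb, Nap1l2 and Chac2, each with a difference of 1.202 between D6 and D13. Slc10a7, AI987944 and Alg11 stood just outside with 1.199, 1.197 and 1.196.

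In a limma fit of all samples, 12 of the 176 genes were down more than 4-fold from D6 to D13 with a Benjamini-Hochberg adjusted p under 0.05, beside 0.695% of all genes. At a 2-fold minimum 83 of them passed, beside 2.63% of all genes. None passed an adjusted p of 0.05 between D0 and D6, where the rule had required a small difference. From D0 to D13, 27 were down more than 4-fold, beside 5.98% of all genes, and in 172 both D0 values lay above both D13 values, beside 35.6% of all genes. The rule used all of these contrasts, so the counts only describe what it selected.

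The calls depended on single samples. Without D13 replicate 1, no gene of the whole table was down more than 4-fold from D6 to D13, and without D6 replicate 2 there was 1 member and 10 genes in all. Without D6 replicate 1 there were 7 members, and without D13 replicate 2 there were 43. From D0 to D13 the 27 members became 17 without D13 replicate 1, 65 without D13 replicate 2 and 45 without D0 replicate 1. The rule itself found 391 genes without D13 replicate 2, and 164 of the 176 were among them. Calls of single genes given below carry the same dependence.

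**Figure D1:**
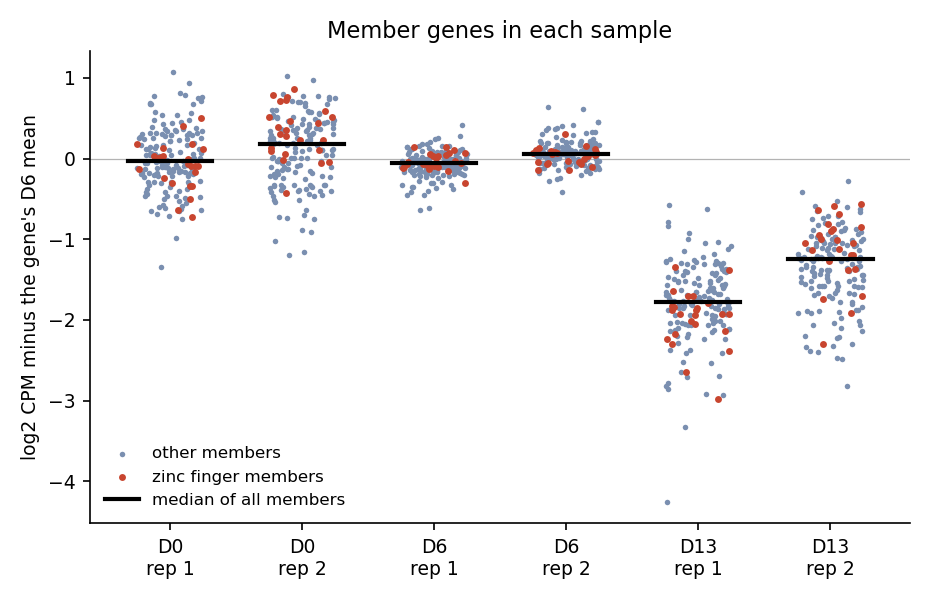
Each point is 1 of the 176 genes in 1 sample, as log2 CPM minus that gene's D6 mean. Red points are the 24 genes with a zinc finger name and black bars are medians over all 176 genes. The D13 replicate 1 median lies 1.78 below the D6 mean and the D13 replicate 2 median 1.25 below it.

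The 2 samples of D13 were not equally low. D13 replicate 1 was below D13 replicate 2 in 139 of the 176 genes, or 79.0%, against 49.4% of all genes. Relative to the D6 mean, the median difference of the set was 1.78 in D13 replicate 1 and 1.25 in D13 replicate 2, or 3.43-fold and 2.37-fold. The median SD between replicates was 0.29 on D0, 0.13 on D6 and 0.42 on D13, while over all genes it was 0.24, 0.10 and 0.27. D13 was thus also the day on which the replicates of these genes were farthest apart.

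When the rule was applied to the replicate 1 samples alone, it found 340 genes, and the replicate 2 samples had no part in that choice. In replicate 2 these genes had a median D6 minus D13 difference of 0.82, with 90.9% of them lower on D13, against 50.3% of all genes. A difference of 1.2 or more was seen in 27.4% of them, against 4.30% of all genes. Chosen in replicate 2 alone, 157 genes had a median difference of 1.40 in replicate 1, with 98.7% lower on D13, and 62.4% reached 1.2, against 7.42% of all genes. In both cases most genes were lower on D13 in the samples not used for the choice, and the size was smaller in replicate 2. The steady level from D0 to D6 carried over less from replicate 1, and for the genes chosen in replicate 2 its share was near that of all genes. Of the 340 genes, 206 (60.6%) had D0 and D6 within 0.5 in replicate 2, against 51.4% of all genes, and of the 157 genes 76 (48.4%) did in replicate 1, against 48.0% of all genes. Both choices shared 48 genes, which is 14.1% of the first set and 30.6% of the second.

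Nodal, a TGF-beta family ligand of the early embryo (chr10:61417972-61425338, GRCm38), was at 5.97 and 6.06 log2 CPM in the D0 samples, 5.96 and 5.96 on D6, and 3.18 and 3.49 on D13. Its D0 and D6 values were nearly the same and lay above both D13 values, which the rule had required of D6. The difference between D6 and D13 was 6.16-fold (log2 difference -2.62 ± 0.22, SE). Of 12 measured genes of the Nodal pathway, 10 were lower on D13 than on D6, beside 51.1% of all genes. Of the 12, 4 were down more than 4-fold, beside 0.695% of all genes. Besides Nodal these included Lefty1 and Lefty2, secreted Nodal antagonists. Lefty2 differed by -2.26 ± 0.22 (SE, limma adjusted p = 0.0102) and Lefty1 by -3.83 ± 0.51 (SE, limma adjusted p = 0.016). Both were outside the set because their D0 and D6 means differed by more than the limit. The receptors Acvr1b, Acvr2a and Acvr2b and the co-receptor Tdgf1 did not pass the test, with differences of -0.27, -0.25, 0.36 and -0.29.

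Inhbb, an activin subunit that was chosen after its values were seen, was at 2.83 and 1.97 on D0, 1.46 and 2.69 on D6, and 0.31 and 0.01 on D13. Its D6 samples differed by more than 1 unit, and both lay above D13 because the rule required it. Notch4, a Notch receptor, was at 2.65 and 2.94 on D0, 2.22 and 2.50 on D6, and 0.19 and 0.81 on D13. It was the only member among 12 measured genes of the Notch list, of which 6 were lower on D13, beside 51.1% of all genes. In that list the ligand Dll1 and the repressor Bhlhe41 rose more than 4-fold, by 4.58 ± 0.53 and 4.84 ± 0.56 (SE, limma adjusted p = 0.0139 for each).

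RNA sensing was represented by 2 members. Ddx58, which encodes the viral RNA sensor RIG-I, was at 4.96 and 5.29 on D0, 4.48 and 5.20 on D6, and 1.98 and 2.52 on D13, a 6.02-fold difference from D6. Ddx60, a related helicase, was at 2.10 and 2.55 on D0, 2.54 and 2.92 on D6, and 1.68 and 1.05 on D13. D6 and D13 did not overlap for either gene, as the rule required, and for Ddx60 their nearest values were less than 1 unit apart. Of 15 measured genes of the interferon and nucleic acid sensing list, 9 were lower on D13, beside 51.1% of all genes. The median difference of the list was -0.11. Ddx58 alone was down more than 4-fold, and Ddx60 did not pass at a 2-fold minimum. Bst2, the tetherin that holds back budding viruses, rose by 1.40 ± 0.27 (SE, limma adjusted p = 0.0319). Chosen after their values were seen, Traf6 and Ripk1, adaptors of innate immune and death receptor signalling, were also members. Traf6 was at 5.02 and 5.06 on D6 and 2.80 and 3.66 on D13, and Ripk1 was at 4.31 and 4.69 on D6 and 2.51 and 3.05 on D13.

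**Figure D2:**
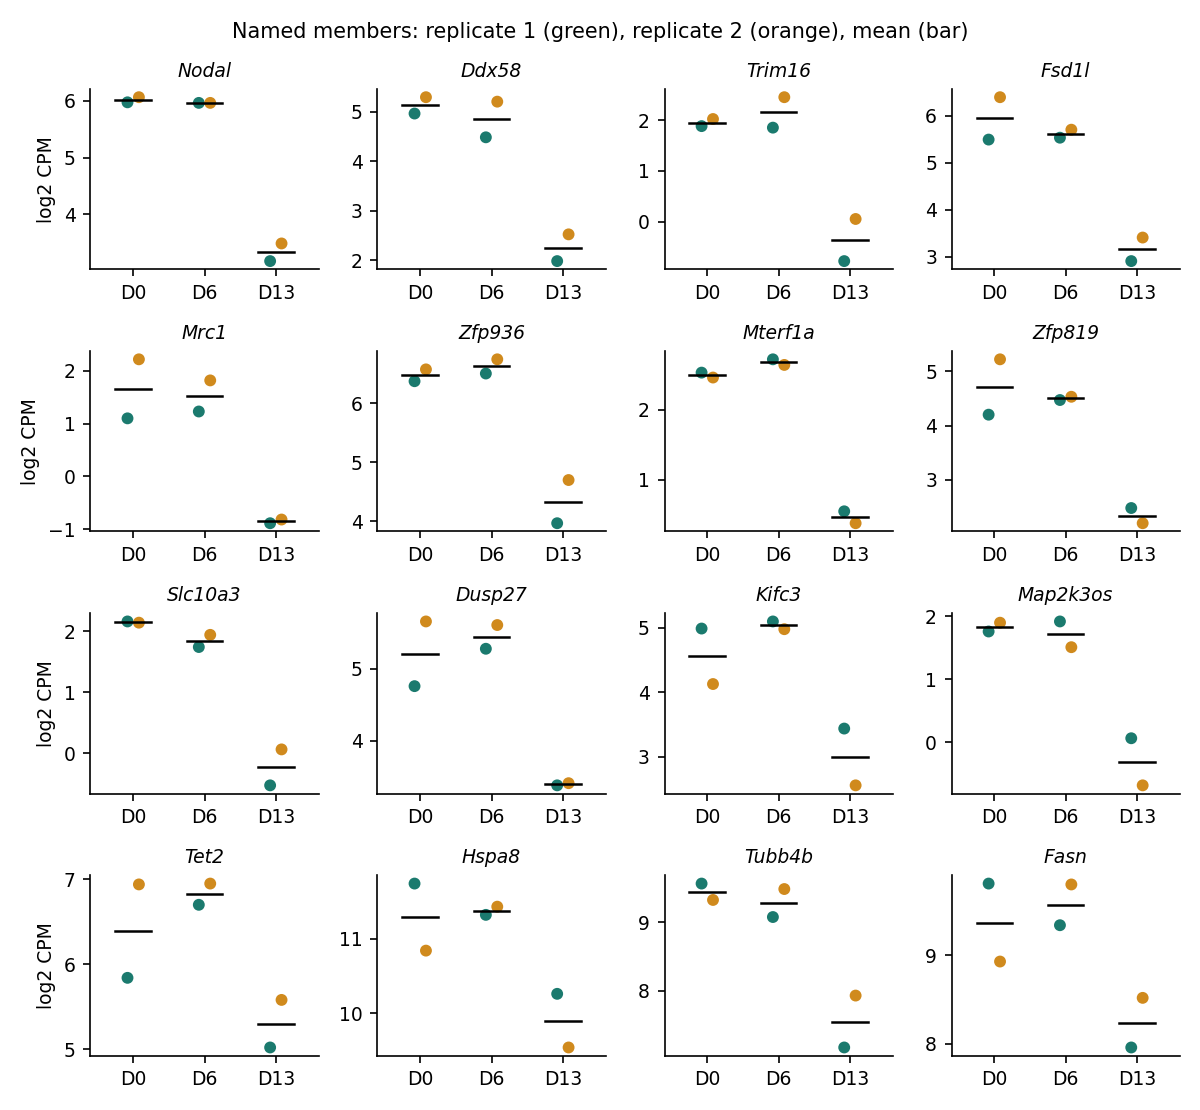
Log2 CPM of 16 members in each sample, with replicate 1 in green, replicate 2 in orange and the mean as a bar. The first 12 panels are the genes down more than 4-fold in the limma fit, and the vertical axes differ between panels and do not start at 0. In every panel both D13 points lie below both D6 points, as the rule required, and the D13 points nearly coincide for Dusp27 (3.38 and 3.41) and lie apart for Kifc3 (3.44 and 2.56).

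D7Ertd143e, a long non-coding RNA, had the largest mean difference, 2.93, but its D13 values were 0.13 and 2.78 against 4.63 and 4.14 on D6. Without D13 replicate 1 its log2 difference from D6 was -1.61. Trim16, an E3 ubiquitin ligase, was at 1.85 and 2.45 on D6 and -0.78 and 0.05 on D13. Fsd1l was at 5.53 and 5.70 on D6 and 2.91 and 3.41 on D13. In both of these genes the D13 samples were closer to each other than to D6. Mterf1a, a mitochondrial transcription termination factor, was at 2.72 and 2.64 on D6 and 0.55 and 0.38 on D13. Mrc1, the mannose receptor, was at 1.23 and 1.82 on D6 and -0.89 and -0.82 on D13. Dusp27, a member of the dual-specificity phosphatase family, was at 5.28 and 5.61 on D6 and 3.38 and 3.41 on D13. In these 3 genes the D13 values nearly coincided. Slc10a3 on the X chromosome was at 1.74 and 1.94 on D6 and -0.53 and 0.06 on D13. The ion channel gene Trpa1 was at 1.79 and 2.12 on D6 and -0.42 and -0.05 on D13. Fam83b resembled D7Ertd143e, since its D13 values of -1.49 and 0.82 stood far apart, and its log2 difference without D13 replicate 1 was -1.02. Kifc3, a kinesin, and Map2k3os, a non-coding RNA, completed the 12 called genes and are named because of that call.

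Hspa8, the constitutive Hsp70 chaperone, was at 11.74 and 10.84 on D0, 11.32 and 11.43 on D6, and 10.26 and 9.54 on D13, a 2.78-fold difference from D6. D0 replicate 2 was the lowest of its D0 and D6 samples. Of 15 measured heat shock genes 10 were lower on D13, beside 51.1% of all genes. The median difference of that list was -0.09. Only 1 of the 15, the J-domain cochaperone Dnajb1, was down more than 2-fold with an adjusted p under 0.05, so Hspa8 did not pass. Dnajb1 fell by 1.19 (SE 0.20, limma adjusted p = 0.0237) without meeting the rule, while the inducible Hspa1a rose by 4.59 ± 0.74 (SE, limma adjusted p = 0.0234). The D13 values of Hspa1a were 5.19 and 2.49, so these samples also differed in a stress-induced gene, and its part in the other results was not tested. Fasn, the fatty acid synthase, was at 9.81 and 8.93 on D0, 9.34 and 9.80 on D6, and 7.96 and 8.52 on D13. No other of the 12 measured fatty acid synthesis genes was a member, and none of the 12 was down more than 2-fold with an adjusted p under 0.05. Fasn itself was 2.51-fold lower on D13 than on D6. Their median difference was -0.21. Sfpq, a splicing factor, averaged 9.22 on D6 and 8.01 on D13, and its replicates nearly coincided on both days. Adnp, a chromatin-bound zinc finger and homeodomain protein, was at 7.65 and 7.73 on D6 and 5.58 and 6.64 on D13.

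Tubulins were a family seen only after the values were known. Tubb4b was at 9.08 and 9.49 on D6 and 7.17 and 7.93 on D13, Tuba4a at 7.21 and 7.46 and then 5.69 and 5.96, and Tubb3 at 5.39 and 6.29 and then 4.02 and 4.41. Tubb3, a neuronal marker, was the only member among the 8 measured neural genes. All 12 measured alpha and beta tubulin genes averaged less on D13 than on D6, beside 51.1% of all genes. The median difference of the tubulins was -0.69, but the other 9 did not pass an adjusted p of 0.05. The abundant Tubb5 was at 10.86 and 11.02 on D6 and 10.63 and 10.45 on D13.

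Tet2, a dioxygenase that oxidizes 5-methylcytosine, was at 5.84 and 6.94 on D0, 6.70 and 6.95 on D6, and 5.02 and 5.58 on D13. D0 replicate 2 was as high as D6, and D0 replicate 1 lay between D6 and D13. Tet1 and Tet3 were not members. Tet1 differed by -0.91 ± 0.35 (SE, limma adjusted p = 0.157) and Tet3 by -0.98 ± 0.34 (SE, limma adjusted p = 0.125) between D6 and D13. E2f3, a cell cycle transcription factor that was chosen after its values were seen, was at 5.61 and 5.90 on D6 and 3.34 and 4.17 on D13.

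Gm8300, the only member from the list of 2-cell-stage genes, was at 1.86 and 1.70 on D6 and 0.34 and -0.60 on D13, and its neighbour Gm2016 on chromosome 12 was at 1.07 and 0.82 and then -0.45 and -1.87. In both genes, unlike most of the set, D13 replicate 2 was the lower sample. They lie within 0.5 Mb of each other, and related copies there may share reads. Of 10 measured 2-cell-stage genes 9 were lower on D13, beside 51.1% of all genes. The median difference of the list was -1.69, and 4 were down more than 4-fold, beside 0.695% of all genes. Zscan4c fell by 2.72 (SE 0.45, limma adjusted p = 0.0234), and had already fallen by 1.58 from D0 to D6 (limma adjusted p = 0.033).

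Zinc finger genes were the largest of the gene families listed. They were taken by name alone, so genes with other names count as other genes even where, as in Adnp, the protein has zinc fingers. Protein domains were not examined. Of the 176 genes, 24 carried a Zfp, Zscan or Zkscan name, or 13.6%, while 354 of all 12522 genes did, or 2.83%. The share was 15.9% (54 of 340) among genes chosen in the replicate 1 samples alone and 8.28% (13 of 157) among those chosen in replicate 2 alone. Whatever their D0 level, 611 genes were lower on D13 than on D6 by 1.2 or more, and 70 of these had such a name. A high share was thus not particular to genes with a steady level from D0 to D6. The 24 differed between D6 and D13 by a median of 1.48, from 1.23 for Zfp786 to 2.34 for Zfp964. Zfp936 was at 6.37 and 6.57 on D0, 6.50 and 6.74 on D6, and 3.97 and 4.70 on D13. Zfp819 was at 4.20 and 5.22 on D0, 4.47 and 4.53 on D6, and 2.48 and 2.20 on D13. In Zfp936 D13 replicate 1 was the lower sample, and in Zfp819 it was D13 replicate 2. The most abundant, Zfp808, was at 7.08 and 6.99 on D6 and 4.90 and 6.04 on D13. The last value lay within 1 unit of D6, and 22 of the 24 genes were lower in D13 replicate 1 than in D13 replicate 2.

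Among the other zinc finger members, Zfp964 was near the limit of the rule on level, at 0.69 and 0.86 on D6 and -2.21 and -0.93 on D13. Zfp14 was at 2.21 and 1.92 and then 0.12 and 0.32, and Zfp566 at 4.66 and 4.53 and then 3.21 and 3.21. Zfp14 and Zfp566 lie in the same cluster, and their D13 samples were close. Zfp41 was at 4.26 and 4.38 on D6 and 2.40 and 3.76 on D13, and Zfp763 at 4.79 and 4.58 and then 2.84 and 3.84. In these 2 genes most of the difference came from D13 replicate 1. The remaining members of the family were Zfp46, Zfp72, Zfp108, Zfp111, Zfp120, Zfp459, Zfp518b, Zfp558, Zfp599, Zfp617, Zfp781, Zfp786, Zfp790, Zfp862-ps, Zfp935 and Zfp953.

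Of the members with the highest D6 levels, Pcf11, a factor of transcription termination, was at 6.92 and 6.79 on D6 and 5.09 and 5.61 on D13. Rbm10, a splicing regulator, was at 6.55 and 6.65 and then 4.91 and 5.20. Gemin4, part of the SMN complex that builds spliceosomal particles, was at 6.72 and 7.20 and then 5.18 and 5.73. All 3 had D13 replicate 1 as the lower sample of that day. The transcription factor Rfx7 averaged 7.17 ± 0.23 on D6 (SD, n = 2) and was at 5.10 and 5.96 on D13, and Zfp518b was at 6.47 and 6.69 and then 4.75 and 5.45. 2410141K09Rik was at 6.68 and 7.05 and then 5.30 and 5.99. Tsix, the antisense RNA of Xist and chosen after its values were seen, was at 2.93 and 3.32 and then 1.00 and 1.73. Whether the counting used strand is not given in the sources used here, so reads of Tsix and Xist may not have been separated.

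The following 2 groups of members were noticed only after their values were seen. Bbs12, Ttc30b, Rpgrip1l, Wdpcp and Ccdc39 act in cilia. Rpgrip1l was at 4.09 and 4.17 on D6 and 2.30 and 3.40 on D13, Bbs12 at 2.81 and 2.82 and then 1.26 and 1.18, and Ttc30b at 1.69 and 1.57 and then -0.31 and 0.41. Besides Mterf1a, mitochondrial gene expression was represented by Tefm, Taco1 and Wars2. Tefm was at 5.25 and 5.37 on D6 and 3.76 and 4.35 on D13, Taco1 at 3.94 and 4.37 and then 2.63 and 3.25, and Wars2 at 3.95 and 3.69 and then 2.74 and 2.48. No count over all genes of these kinds was made.

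The 330 zinc finger genes outside the set were not chosen for their change, although the rule had removed those that met it. At D13, 259 of them were lower than on D6, or 78.5%, with a median difference of -0.48, while 51.1% of all genes were lower. In the limma fit 32 of the 330 were down more than 2-fold and 2 were up. Over all 354 zinc finger genes, 231 lay below the D6 mean in both D13 samples. Their median difference from it was -0.87 in D13 replicate 1 and -0.31 in D13 replicate 2. Between D0 and D6 the median difference of these genes was -0.24. Of 70 zinc finger genes lower on D13 by 1.2 or more, 36 had already been lower on D6 than on D0 by at least 0.5 and 10 had been higher.

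The zinc finger calls depended on single samples. With all samples 43 of the 354 were down more than 2-fold, and none was when D13 replicate 1 or D6 replicate 2 was left out. Without D6 replicate 1 the count was 5, and without D13 replicate 2 it was 97. The family median stayed below 0 in each of these cases, from -0.87 to -0.31. Many of these genes have close copies whose reads may be exchanged or discarded by the counting, so single values are uncertain.

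**Figure D3:**
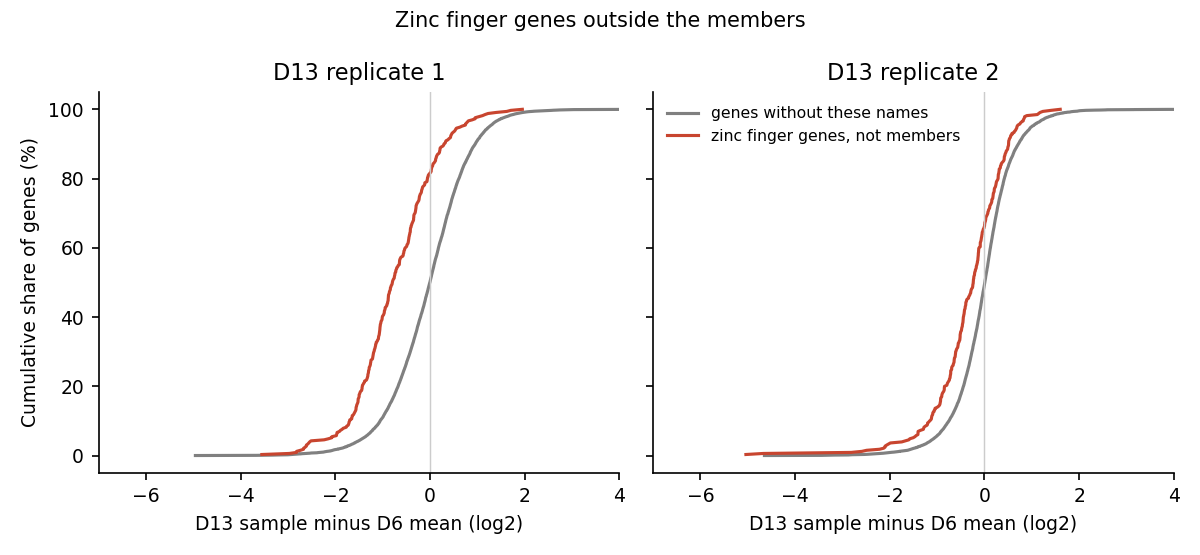
Cumulative share of genes, in percent, by the log2 difference between a D13 sample and the D6 mean, for 330 zinc finger genes outside the 176 (red) and all genes without these names (grey). In D13 replicate 1 the red line is far to the left of the grey one, and in D13 replicate 2 the shift is smaller.

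Several members lay next to each other. Within a distance of 500 kb, 35 of the 176 genes formed 15 groups, and 6 of these groups, with 17 members, held genes with a zinc finger name. On chromosome 13, Zfp808, Zfp935, 6720489N17Rik and Gm5141 lay at chr13:62129857-62785808. Further along it, Rsl1, Zfp953 and Zfp459 lay at chr13:67173182-67443302. On chromosome 7, Zfp936, EU599041 and Zfp819 lay at chr7:43114166-43618279 and Zfp790, Zfp14 and Zfp566 at chr7:29811437-30090510. Chromosome 13 had the highest share of members, 12 of 436 measured genes, or 2.75%. Around the 6 groups, 46 further zinc finger genes were measured, and 38 of them (82.6%) were lower on D13 than on D6, with a median of -0.67. Of all 330 zinc finger genes outside the set, wherever they lay, 78.5% were lower, with a median of -0.48. Of 73 neighbours without such names, 34 were lower, with a median of 0.07. These counts describe the regions and were not tested.

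The 9 other groups included pairs without a zinc finger name. On chromosome 11 Fasn lay near Sirt7, a deacylase, with a mean of 3.96 ± 0.05 on D6 (SD, n = 2) and values of 2.59 and 2.78 on D13. On chromosome 9 Hspa8 lay near Clmp, a cell adhesion gene, at 1.27 and 1.67 and then -0.47 and -0.44. Within each of these pairs the members differed widely in level. Adnp and Mocs3, Sema7a and Islr2, Myo5c and Scg3, and Nap1l2 and Tsix were further pairs.

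Promoter sequences from RefSeq (GRCm38.p6, 250 bases before to 50 after the start) were matched to 142 of the 176 genes, or 80.7%. The CpG count of the 300 bases had a median of 18.5 in these promoters and 21 over the 9897 matched promoters of all genes. It was 10 in the 21 matched zinc finger members and 15 in 271 zinc finger genes outside the set. The ratio of observed to expected CpG was 0.71, 0.77, 0.47 and 0.66 in the same order. Of the groups compared, the zinc finger members had the lowest median on both measures.

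Of the members, 9 shared promoter sequence with another member, taken as at least 60 of 289 possible 12-base words in common, and all of them lay in 3 regions. They are shown because the rule picked several related copies in each region. The 250 bases upstream of the start are given on the strand of the gene, and capitals mark CCAATCA, the only word of 7 bases found in all 9 promoters. The first region is on chromosome 2, with Gm14305 at chr2:176708103-176708352 on the plus strand, Gm14403 at chr2:177497976-177498225 on the plus strand and Gm14326 at chr2:177957289-177957538 on the minus strand.
Gm14305: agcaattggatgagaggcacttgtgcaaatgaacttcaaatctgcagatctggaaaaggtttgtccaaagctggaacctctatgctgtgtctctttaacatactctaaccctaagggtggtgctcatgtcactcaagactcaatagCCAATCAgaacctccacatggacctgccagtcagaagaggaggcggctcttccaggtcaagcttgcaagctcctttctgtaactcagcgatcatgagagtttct
Gm14403: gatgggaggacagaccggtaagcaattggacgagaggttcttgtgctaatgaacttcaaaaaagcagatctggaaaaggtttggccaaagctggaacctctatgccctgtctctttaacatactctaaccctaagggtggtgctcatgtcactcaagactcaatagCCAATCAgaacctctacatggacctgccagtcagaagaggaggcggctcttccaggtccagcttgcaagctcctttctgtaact
Gm14326: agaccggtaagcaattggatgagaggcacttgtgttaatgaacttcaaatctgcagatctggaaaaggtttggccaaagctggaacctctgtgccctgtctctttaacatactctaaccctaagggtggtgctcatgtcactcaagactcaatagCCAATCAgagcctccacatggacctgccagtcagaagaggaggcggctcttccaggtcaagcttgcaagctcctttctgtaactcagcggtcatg

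The second is on chromosome 7, with Zfp936 at chr7:43177340-43177589 and EU599041 at chr7:43213789-43214038, both on the plus strand.
Zfp936: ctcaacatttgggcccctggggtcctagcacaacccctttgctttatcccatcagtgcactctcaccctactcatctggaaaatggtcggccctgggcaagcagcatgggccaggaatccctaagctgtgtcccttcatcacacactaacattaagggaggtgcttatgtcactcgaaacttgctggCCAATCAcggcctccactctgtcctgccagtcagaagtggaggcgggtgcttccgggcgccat
EU599041: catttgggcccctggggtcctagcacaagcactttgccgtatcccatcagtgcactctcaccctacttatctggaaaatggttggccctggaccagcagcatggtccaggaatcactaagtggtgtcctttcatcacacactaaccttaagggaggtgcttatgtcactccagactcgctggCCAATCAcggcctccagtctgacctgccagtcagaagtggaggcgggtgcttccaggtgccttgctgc

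The third is on chromosome 13, with Zfp808 at chr13:62129640-62129889 on the plus strand. Zfp935 at chr13:62466813-62467062, 6720489N17Rik at chr13:62624183-62624432 and Gm5141 at chr13:62785809-62786058 are on the minus strand.
Zfp808: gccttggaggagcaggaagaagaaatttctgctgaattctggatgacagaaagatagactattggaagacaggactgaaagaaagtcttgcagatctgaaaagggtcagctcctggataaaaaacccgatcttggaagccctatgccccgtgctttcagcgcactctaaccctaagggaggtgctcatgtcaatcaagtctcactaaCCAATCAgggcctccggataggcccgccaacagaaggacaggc
Zfp935: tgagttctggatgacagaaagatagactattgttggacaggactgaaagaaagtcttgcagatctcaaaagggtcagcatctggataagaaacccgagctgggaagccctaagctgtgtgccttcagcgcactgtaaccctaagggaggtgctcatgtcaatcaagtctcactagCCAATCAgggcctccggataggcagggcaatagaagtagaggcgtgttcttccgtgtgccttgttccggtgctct
6720489N17Rik: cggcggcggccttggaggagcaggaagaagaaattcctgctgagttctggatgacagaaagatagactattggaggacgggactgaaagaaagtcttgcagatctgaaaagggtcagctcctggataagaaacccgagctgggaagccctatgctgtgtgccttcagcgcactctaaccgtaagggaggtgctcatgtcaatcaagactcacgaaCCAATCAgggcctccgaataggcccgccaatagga
Gm5141: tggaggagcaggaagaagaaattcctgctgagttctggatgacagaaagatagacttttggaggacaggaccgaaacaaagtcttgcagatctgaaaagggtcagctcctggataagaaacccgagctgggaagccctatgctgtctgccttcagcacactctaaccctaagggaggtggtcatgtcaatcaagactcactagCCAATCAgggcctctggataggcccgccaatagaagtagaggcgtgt

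These promoters held few CpG sites, from 2 in the printed bases of Gm14305 to 10 in those of 6720489N17Rik. Counting both strands, CCAATCA was found in 24 of 142 member promoters, or 16.9%, and in 11.2% of all promoters. Outside the 9 shown here it was found in 15 of 133, or 11.3%, which is near the share of all promoters. It contains the shorter CCAAT, found in 43.7% of member promoters and 39.3% of all promoters. Other words searched on both strands gave shares in members and in all promoters of 57.0% and 64.9% for GGGCGG, 31.0% and 28.5% for TTCCGG, 6.34% and 10.3% for CACGTG, and 5.63% and 6.61% for TATAAA. TGACGTCA was in 2.82% and 3.15%, GAANNTTC in 4.93% and 5.55%, AAGATGGCG in 2.11% and 3.25%, and CTCGCGAG in 0.704% and 1.98%. None of these shares was tested, and a match says nothing about binding.

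Gm14305, Gm14403 and Gm14326 were at 3.34 and 3.33, 4.63 and 4.66, and 4.53 and 4.67 on D6, and at 1.46 and 2.63, 2.87 and 2.73, and 2.75 and 3.81 on D13. Gm5141 was at 3.36 and 3.53 on D6 and 1.21 and 2.21 on D13, and EU599041 was at 5.58 and 5.54 and then 3.82 and 4.48. In each of these genes the D6 samples were closer to each other than the D13 samples, and in Gm14403 the D13 samples were close as well. A further 9 measured genes, found after the values were seen, shared promoter sequence with these 9 to the same extent. Of these further genes, 7 were lower on D13 than on D6, beside 51.1% of all genes. On chromosome 7, 9830147E19Rik was at 6.35 and 6.40 on D6 and 4.37 and 5.30 on D13 (difference -1.54 ± 0.30, SE, limma adjusted p = 0.032). Gm3604 on chromosome 13 was at 5.79 and 5.70 and then 4.07 and 4.85 (difference -1.29 ± 0.29, SE, limma adjusted p = 0.0443). Both were higher on D6 than on D0 by more than the limit of the rule, by 0.62 and 1.44. The exceptions were Gm14295 and Gm14440 on chromosome 2, which were higher on D13 by 0.91 and 0.28 without passing the test. Genes with shared promoter sequence thus differed in the direction of their difference.

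The length and base composition of transcripts moved with these results. The longest annotated transcript had a median GC content of 47.2% in the 176 genes, 43.5% in the zinc finger members and 49.8% over all genes, with values for 98.9% of members. Across 12350 genes, which are not independent replicates, transcript GC content correlated with D13 replicate 1 minus D13 replicate 2 with Pearson's r of 0.32, and with D13 minus D6 with r of 0.16. The log2 length of the transcript correlated with the same differences with r of -0.57 and -0.23, so that longer transcripts were lower in D13 replicate 1. The median length was 3534 bases in the 176 genes, 3597 in zinc finger genes outside the set and 3367 over all genes. In 5 bins of 2470 genes by GC content, 2.27% of genes were members in the lowest bin and 0.85% to 1.38% in the others. Genes with long or GC-poor transcripts tended to be lower in D13 replicate 1 than in D13 replicate 2, and the part of length and GC content in the choice of members was not tested.

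The bins were also compared without the 176 genes, which had been chosen for being lower on D13. In each bin the 330 remaining zinc finger genes had a lower median relative to D6 than the other genes. In the lowest bin their median difference was -0.64, against -0.06 for the others, and 85.0% against 56.1% were lower on D13. In the highest bin it was -0.27 against 0.12, with 68.2% against 41.6% lower. In D13 replicate 2 the median of zinc finger genes ranged from -0.32 to -0.13 over the bins, and that of the other genes from -0.02 to 0.07. These values are a description, and bins of transcript length were not compared.

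**Figure D4:**
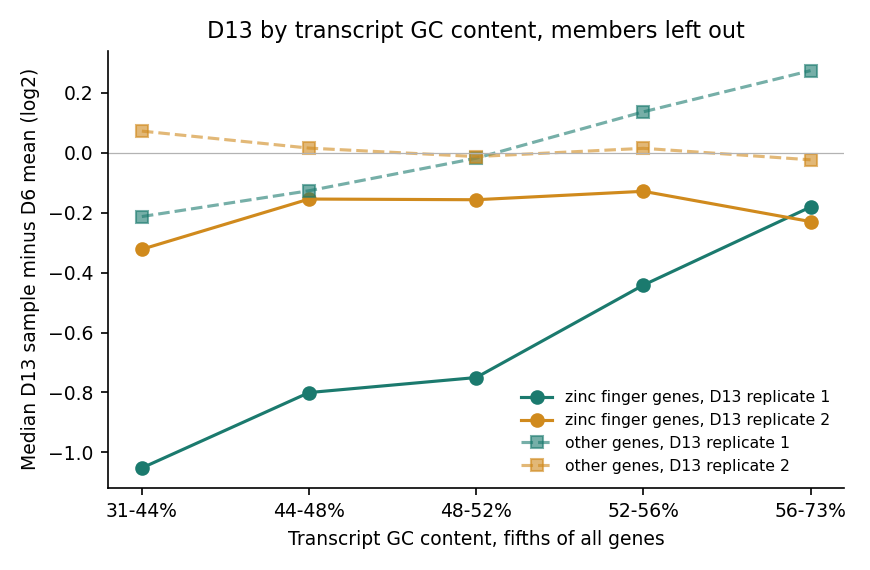
Median log2 difference between each D13 sample and the D6 mean, by bin of transcript GC content, for zinc finger genes (solid lines) and other genes (dashed lines) outside the 176, in D13 replicate 1 (green) and D13 replicate 2 (orange). The solid lines are below the dashed line of the same sample in every bin, and the green lines rise with GC content.

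The same conditions were then applied to transposon families in the same samples, again as a description. They were met by 11 of 298 families with a unique name, or 3.69%. Without D0 replicate 1 or without D6 replicate 1 the count was 7, and without D13 replicate 2 it was 39. MERVL-int, the endogenous retrovirus active in 2-cell embryos, was at 7.34 and 6.84 on D0, 7.15 and 6.78 on D6, and 4.44 and 5.66 on D13. B2_Mm1a, a SINE family, was at 9.17 and 7.93 on D0, 8.81 and 9.19 on D6, and 7.31 and 7.08 on D13, and B2_Mm1t moved much like it. RLTR19-int was at 8.16 and 7.82 on D6 and 6.65 and 6.18 on D13. These 4 families had the highest D6 levels of the 11, and in 3 of them, other than MERVL-int, the D13 samples were within 0.5 of each other. L1VL1 was at 3.18 and 2.53 on D6 and 0.15 and 2.40 on D13, so that D13 replicate 2 was close to D6 and D13 replicate 1 was not. The other families were MER34B-int, RLTR20B1, MMERVK9E_I-int, L1Md_F, ORR1A4-int and RMER17A. Reads on all families together, weighted by hits, numbered 1896202 on D6 and 725940 on D13 in replicate 1. In replicate 2 they numbered 1391561 and 886847. Whether the 11 families fell more than the others, and whether they relate to the zinc finger genes, was not tested.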

How the data were processed

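Paired-end libraries were made with a stranded mRNA kit. Per the labels and the study's methods, the authors aligned reads to mm10 with TopHat2 2.0.6, counted RefSeq genes with HTSeq 0.6.1, weighted reads on transposon families by their number of hits, normalized both together with TMM in edgeR, and deposited voom log2 CPM. Bowtie 1.0.0 is also listed. Gene values lay on whole reads plus 0.5 (tolerance 0.1 of a read) and gave 73230745 to 83688345 reads on genes per sample. At this depth 3 reads are at most 0.042 CPM.

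The 12626 gene rows and 302 families were fitted together with limma 3.58.1 (R 4.3.3): moderated test with a trend, 3 day means, Benjamini-Hochberg adjustment over 12928 rows, and calls at over 4-fold (genes) with adjusted p under 0.05. The script was tested on simulated data. The fall planted there was larger than that of any member, so that run checks the code and not the calls given here. Rows sharing a name (104) were left out of all counts of genes. File names lack each capital G with the character after it, so 17 member names were restored by a single RefSeq match and 5 were matched by synonym. Members, gene lists and tests were chosen with earlier results of these data known. Genes named are the 15 members with the largest difference and at least 10 reads in both D6 samples, the 15 highest at D6, members of the lists or families, the 3 on either side of the threshold, local groups, and transposon families that met the rule; others are marked as chosen after their values were seen, as were the shared-promoter and transcript length and GC comparisons (longest GENCODE transcript). Alternatives are given in the closing section. Results for a few genes are not reported here.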

Additional observations from a re-analysis of the deposited data

How the results depend on the processing

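The number of genes that met the rule was 176, and it became 295 and 84 with a minimum difference of 1.0 and 1.5, 108 with D0 and D6 within 0.3, and 340 with the replicate 1 samples alone. Leaving out 1 sample gave 121 to 391 genes, with 391 reached without D13 replicate 2, of which 164 were among the 176. Members down more than 4-fold from D6 to D13 numbered 12, and 0 to 43 when 1 sample was left out. The 0 was without D13 replicate 1, the 1 without D6 replicate 2 and the 43 without D13 replicate 2. Over all genes the count was 87, and 0 to 192 with 1 sample left out. From D0 to D13 it was 27, and 17 to 65. With a 2-fold minimum these 3 counts became 83, 329 and 153, and with no fold minimum 83, 342 and 158. The 11 transposon families became 18 with a minimum of 1.0, and 7 to 39 with 1 sample left out. The median difference of the set ranged from -1.78 to -1.25 with 1 sample left out, and that of zinc finger genes from -0.87 to -0.31.

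Samples share only a replicate number. The difference between replicates 1 and 2 correlated between days with r of -0.13, 0.33 and 0.14 (D0 with D6, D6 with D13, D0 with D13). With a replicate block, 18 members and 122 genes were down more than 4-fold from D6 to D13, and 76 in place of 43 zinc finger genes were down more than 2-fold (0 to 97 with 1 sample left out). The block changed the call of 5 of 54 named members. Over the block and the samples left out, 378 values of named members all kept their direction, while some calls were lost and others gained. The rule had fixed that direction in advance, since both D13 values of every member lie below both D6 values. The zinc finger values and the families with samples left out were chosen after seeing the data. With 2 samples a day, the spread within D13 limits which differences can be called.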
